A study of Mus musculus with 12 samples.

Results

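Among the accessible sites of 2 murine erythroid cell lines, 410 regions carried a DNase I peak in every list of 3 of the 4 groups and in no list of the remaining one, mitotic G1E-ER4 cells. They are regions held by all 3 asynchronous G1E, all 3 asynchronous G1E-ER4 and all 3 mitotic G1E lists and by none of the 3 mitotic G1E-ER4 lists. Such a region was called missing only from mitotic G1E-ER4. The 410 were found among 263720 regions, which came from merging the peaks of the 12 replicate lists on chromosomes 1 to 19 wherever they shared at least 1 bp. The regions were chosen by the presence and absence of peaks in the 12 lists, which are given as a description, with no test.

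The lines were G1E, derived from strain 129 embryonic stem cells with a disrupted GATA-1 gene and labelled Ter119- with or without CD71, and G1E-ER4, its subline with inducible GATA-1, labelled Ter119+CD71+. All G1E-ER4 cells received 100 nM estradiol for 22 h, while the labels of G1E name none, so GATA-1, estradiol and subline cannot be told apart. Mitotic cells of both lines had 200 ng/ml nocodazole for 7 h and were sorted for histone H3 phosphorylated at serine 10, whereas asynchronous cells had neither step. All cells were fixed with formaldehyde before DNase I digestion. Each of the 4 groups had 3 libraries, and since nothing labels them as separate cultures, p-values measure the spread between these libraries, which may be technical.

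GATA1 is the transcription factor that drives red cell maturation, and progenitors without it stall before terminal differentiation. It binds WGATAR sites in enhancers and promoters, activates erythroid genes, and displaces the related factor GATA2 from sites that serve the progenitor state, many of which are then silenced. In mitosis chromosomes condense, transcription largely stops and many factors leave the DNA, while some sites stay open to nucleases. DNase I cuts such open DNA, so a peak marks a stretch where regulatory proteins have displaced nucleosomes.

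Each deposited list gave the 100000 peaks of highest signal in its library, so presence means a place within that limit. The rank of a peak in its list, 1 being the highest signal, served as the measure of strength, and a larger number is a weaker rank. A rank compares a site with the other sites of the same library and carries no absolute level of accessibility, and read depth is unknown from these files. The signal curves of the mitotic lists were flatter: at rank 10000 the signal was 3.19 to 6.30 times that of the last listed peak in the 6 asynchronous lists and 1.86 to 2.67 times in the 6 mitotic ones. The names of the peaks carry a running number along each chromosome that skips values, which no source explains. Read as the caller's own index, it puts the peaks called on these chromosomes before the limit at 271667 to 585647 per library or more. Absence from a list therefore does not show that no peak was called, and the part of the limit in the loss described here was not tested. Regions are given by their mm9 position, counted from 1, because the gene tables at hand belong to another build, and neither nearby genes nor markers of the cell type were checked.

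Regions held by all 9 lists outside mitotic G1E-ER4 numbered 18900, and the 410 make up 2.17% of these and 0.155% of all merged regions. Loss from mitotic G1E-ER4 alone lay between the other 3 patterns of this kind. The counterpart in the other line, held by every list but those of mitotic G1E and called the mirror regions from here on, had 38 regions of 17597 (0.216%). Regions missing only from asynchronous G1E-ER4 numbered 11 of 16768 (0.0656%), and those missing only from asynchronous G1E 1570 of 21420 (7.33%). Most of the 18900 regions were kept: all 3 mitotic G1E-ER4 lists held 16145 of them (85.4%), 2 lists held 1593 (8.43%) and 1 list held 752 (3.98%). Singly, the mitotic G1E-ER4 lists held 92.2%, 94.4% and 90.5% of the regions as replicates 1, 2 and 3.

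Single lists weighed on these counts. Without replicate 1 of mitotic G1E, the count of 410 became 1231, and without replicate 1 or 2 of mitotic G1E-ER4 it became 616 or 772. The 38 mirror regions became 65 or 66 without replicate 1 or 2 of asynchronous G1E, 81, 106 or 104 without replicate 1, 2 or 3 of mitotic G1E, and 106, 68 or 74 without replicate 1, 2 or 3 of mitotic G1E-ER4. With both replicate 1 libraries of G1E left out, a setting chosen after seeing the data, there were 1287 regions missing only from mitotic G1E-ER4 and 119 mirror regions.

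The 410 regions stood high in asynchronous G1E and much lower in the other 2 groups that held them. For the 410 the median rank was 12609, 14815 and 14411.5 in the 3 asynchronous G1E lists, a mean of 13945 ± 1175 (SD, n = 3). In asynchronous G1E-ER4 it was 30022.5, 32160 and 27677.5, a mean of 29953 ± 2242 (SD, n = 3). No list of one line reached the values of the other. In mitotic G1E the median rank was 42062.5, 22562 and 22890.5, a mean of 29172 ± 11165 (SD, n = 3), with replicate 1 far below the other 2. The ranks were weaker by 16008 places in asynchronous G1E-ER4 and by 15227 places in mitotic G1E than in asynchronous G1E, and both comparisons share the asynchronous G1E lists. Each had an exact permutation p = 0.1, two-sided, the smallest that 3 lists against 3 allow. After Benjamini-Hochberg adjustment over the 9 tests made, each permutation p was 0.15, so neither could pass the threshold of 0.05. The rule asked for absence from mitotic G1E-ER4, which shares its line or its mitosis with these 2 groups and neither with asynchronous G1E. The order of the groups is therefore not independent of the rule and is given as a description.

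**Figure D1:**
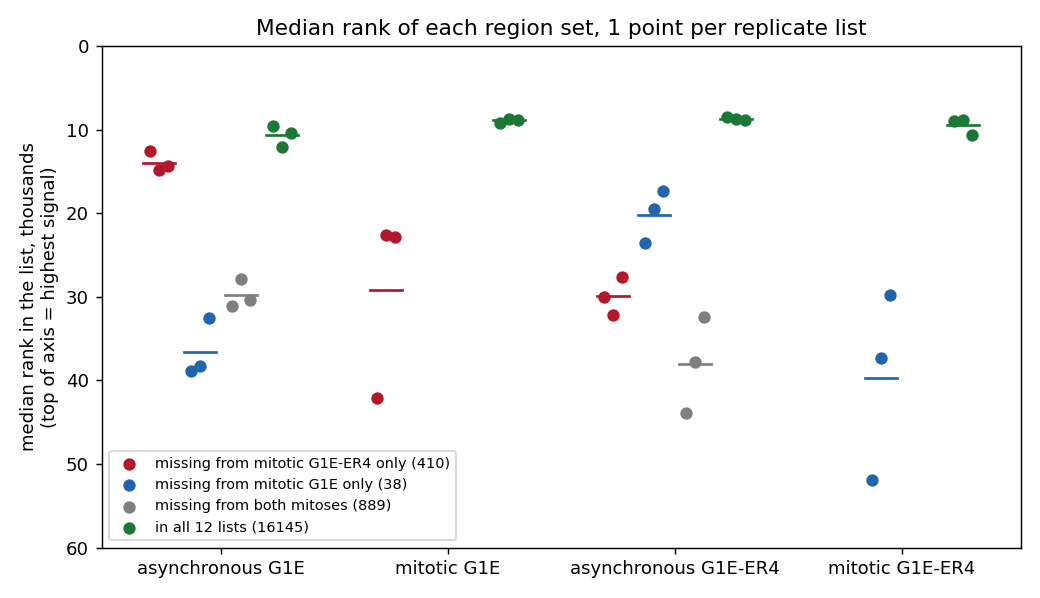
Median rank of 4 sets of regions in each replicate list (y axis, highest signal at the top) by group (x axis), with 1 point per list and a bar at the mean of 3. The regions missing only from mitotic G1E-ER4 lie at 12609 to 14815 in asynchronous G1E and at 27677.5 to 32160 in asynchronous G1E-ER4, and the mirror regions have the opposite order.

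Signal relative to the last peak of the same list restates the ranks on another scale, since rank follows signal within a list. At the 410 regions the median signal was 5.09, 2.62 and 3.23 times the lowest listed signal in asynchronous G1E. It was 1.65, 1.46 and 1.59 times in asynchronous G1E-ER4 and 1.21, 1.61 and 1.52 times in mitotic G1E. In the last 2 groups the regions thus stood close above the limit of the lists. The regions held by all 12 lists had medians of 4.37 to 5.07 times in asynchronous G1E-ER4 and 1.94 to 2.98 times in mitotic G1E. In asynchronous G1E they had 2.92 to 6.56 times, although their mean median rank was no better there, at 10660 against 8917 in mitotic G1E. Between asynchronous and mitotic lists this measure thus also carries the flatter mitotic curves.

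Region by region, 248 of the 410 (60.5%) had a weaker rank in all 3 asynchronous G1E-ER4 lists than in all 3 asynchronous G1E lists. Of all 18900 regions held by the 9 lists, 12.7% had this order. The 410 were picked from the 18900 by absence from mitotic G1E-ER4. Differences between the 2 sets in these shares are therefore not independent of the rule and are given as a description. The opposite order was found for 6 of the 410 (1.46%), against 24.8% of the 18900. The mean rank in asynchronous G1E-ER4 was a median of 2.30 times that in asynchronous G1E at the 410 regions, with an interquartile range of 1.36 to 3.70, and 0.827 times at the 18900. A rank weaker in all 3 mitotic than in all 3 asynchronous G1E lists was found for 188 of the 410 (45.9%), against 12.5% of the 18900. In 1 of the 410 the order was the opposite, against 20.3% of the 18900. Asynchronous G1E-ER4 and mitotic G1E did not separate in the same way. The rank was weaker in all 3 asynchronous G1E-ER4 than in all 3 mitotic G1E lists for 76 of the 410 (18.5%, against 15.1% of the 18900), and stronger for 49 of the 410 (against 15.4% of the 18900), shares near the background.

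**Figure D2:**
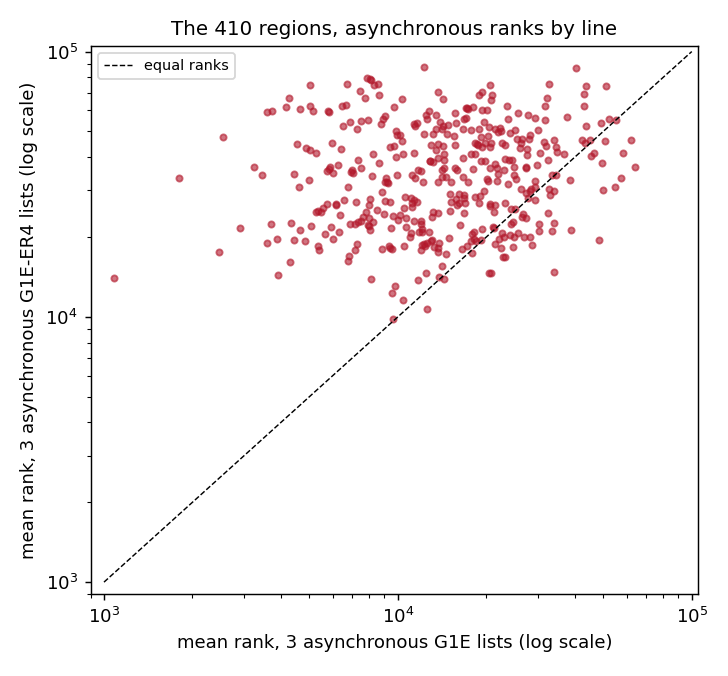
Mean rank of each of the 410 regions in the 3 asynchronous G1E lists (x axis) and the 3 asynchronous G1E-ER4 lists (y axis), both on log scales with the highest signal at the lower left. Most points lie above the dashed line of equal ranks, that is, weaker in G1E-ER4, where the means span 9808 to 87296, against 1084 to 63991 in G1E.

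The order was graded over the regions that mitotic G1E-ER4 lists held in part. Regions were classed here by the number of mitotic G1E-ER4 lists that held them, the same lists that the rule used. All of them also had to be in every mitotic G1E list. The gradient is therefore not independent of the rule and is given as a description. How much of it the choice of regions alone would give was not tested. Weaker ranks in all 3 asynchronous G1E-ER4 than in all 3 asynchronous G1E lists were found for 38.6% of the 752 regions that 1 mitotic G1E-ER4 list held, 22.0% of the 1593 that 2 lists held and 9.40% of the 16145 that all 3 held. Stronger ranks in asynchronous G1E-ER4 were found for 4.39%, 12.1% and 27.6% of the same regions. The median ratio of mean ranks, asynchronous G1E-ER4 over G1E, was 2.30, 1.42, 1.07 and 0.770 for regions held by 0, 1, 2 and 3 mitotic G1E-ER4 lists.

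**Figure D3:**
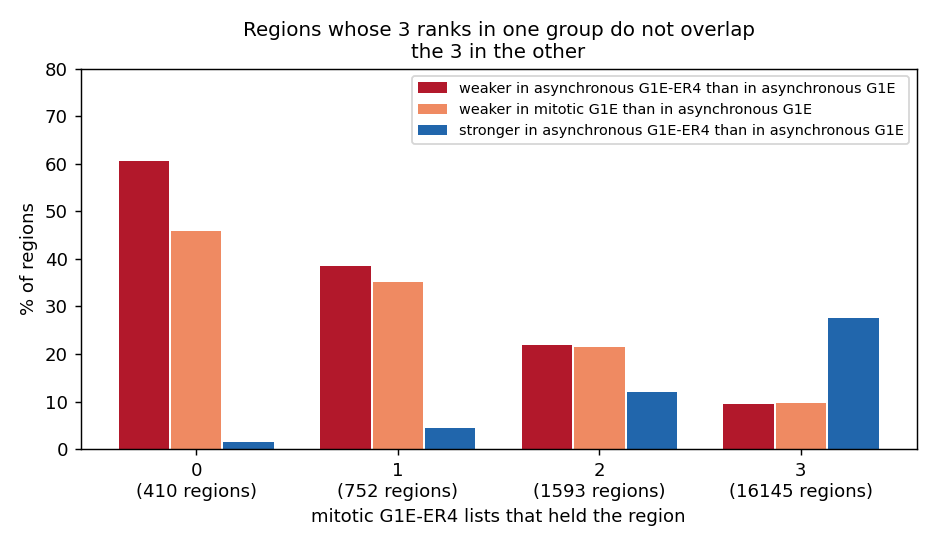
Share of regions (y axis, %) whose 3 ranks in one group lie wholly below or above the 3 ranks in the other, by the number of mitotic G1E-ER4 lists that held the region (x axis). The share weaker in asynchronous G1E-ER4 than in asynchronous G1E was 60.5% at 0 lists and 9.40% at 3 lists, and the share stronger there was 1.46% and 27.6%.

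Loss went with a weak rank in asynchronous G1E-ER4 and, at a given rank there, with a strong one in asynchronous G1E. Of the regions with a mean rank of 1 to 10000 in asynchronous G1E-ER4, 1 of 8977 was missing from mitotic G1E-ER4 (0.0111%). The share was 1.36% at ranks 10001 to 20000, 5.25% at 20001 to 30000, 6.23% at 30001 to 40000 and 9.35% beyond 50000. By the mean rank in asynchronous G1E the shares had no such course: 1.58% at ranks 1 to 10000, 3.99% at 20001 to 30000 and 0.558% beyond 50000. Among the 2075 regions ranked 20001 to 30000 in asynchronous G1E-ER4, 38 of the 210 that ranked within the first 10000 in asynchronous G1E were missing (18.1%), against 8 of the 950 that ranked beyond 30000 there (0.842%). Among regions beyond rank 40000 in asynchronous G1E-ER4, these shares were 42 of 82 (51.2%) and 29 of 1325 (2.19%). The ranks in mitotic G1E had a course like those in asynchronous G1E-ER4, with 0.147% missing at ranks 1 to 10000 and 11.2% beyond 50000. All of these regions also had to be in every mitotic G1E list, whatever their rank in asynchronous G1E. The shares are therefore not independent of the rule. How much of their course the choice of regions alone would give was not tested. Regions are not replicates, and these shares are a description.

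**Figure D4:**
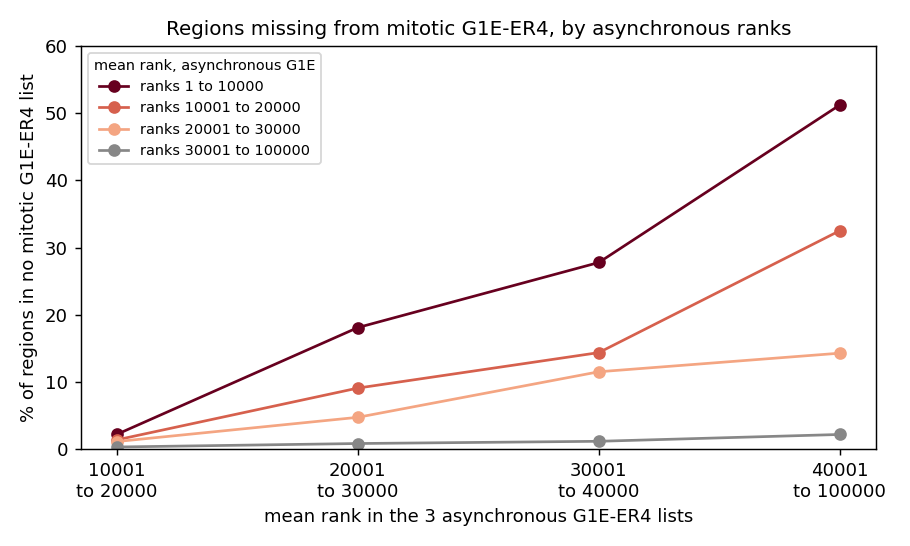
Share of the regions held by the 9 other lists that no mitotic G1E-ER4 list held (y axis, %), by mean rank in the 3 asynchronous G1E-ER4 lists (x axis), with a line for each class of mean rank in the 3 asynchronous G1E lists. The share rises to 51.2% for regions beyond rank 40000 in G1E-ER4 and within the first 10000 in G1E, and stays at 0.325% to 2.19% for those beyond rank 30000 in G1E.

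The mirror regions had the opposite order between the lines. Their median rank was 38827, 38227.5 and 32576 in asynchronous G1E and 23533, 19543.5 and 17401 in asynchronous G1E-ER4. They were thus stronger in every list of the line whose mitotic lists kept them. The mirror regions and the 410 were chosen by opposite presence in the mitotic lists of these lines. The opposite order is therefore not independent of the rule and is given as a description. Of the 38, 19 (50.0%) were ranked stronger in all 3 asynchronous G1E-ER4 than in all 3 asynchronous G1E lists, and 1 (2.63%) weaker. Of the 18900 regions, which do not include the mirror regions, 24.8% were stronger and 12.7% weaker. These shares were not computed for the 17597 regions that include them. The median rank of the 410 regions minus that of the mirror regions was -22598 ± 4088 in asynchronous G1E and 9794 ± 3092 in asynchronous G1E-ER4 (SD, n = 3 each). It was negative in all 3 G1E and positive in all 3 G1E-ER4 lists. The lines differed in it by 32392 places (exact permutation test, two-sided, p = 0.1, the smallest possible, adjusted p = 0.15). The mean over all 6 asynchronous lists, -6402 places (exact sign-flip permutation test, two-sided, p = 0.406, adjusted p = 0.457), averages these opposite values and describes neither line.

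Against the 16145 regions that all 12 lists held, the 410 were weaker and narrower in every list that held both. The sets were split by presence within the rank limit of the mitotic G1E-ER4 lists, and the wider merged regions take the best of more peaks, so their order is not independent of the rule and is given as a description. The median rank was weaker by 14928 places on average, in 9 of 9 lists. The deficit was 3285 ± 660 places in asynchronous G1E, 20255 ± 10927 in mitotic G1E and 21245 ± 2295 in asynchronous G1E-ER4 (SD, n = 3 each). The median peak width of the 410 regions minus that of the regions of all 12 lists was -656 bp on average, negative in 9 of 9 lists. It was -266 ± 246 bp in asynchronous G1E, where replicate 2 had only -26.0 bp, -814 ± 121 bp in mitotic G1E and -889 ± 201 bp in asynchronous G1E-ER4 (SD, n = 3 each). Another set, the 889 regions held by the 6 asynchronous and by no mitotic list, lay lower in asynchronous G1E, with median ranks of 31073, 27860 and 30420, and in asynchronous G1E-ER4, with 43948, 37763 and 32458. The median rank of the 410 regions minus that of the regions missing from both mitoses was -15839 ± 2713 places in G1E and -8103 ± 5059 places in G1E-ER4 (SD, n = 3 each), negative in 6 of 6 lists, a difference that was described and not tested.

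The width of the peaks separated the groups less than their rank. The best peak at the 410 regions had a median width of 1359, 628 and 733.5 bp in asynchronous G1E, 751, 635.5 and 594 bp in mitotic G1E and 812.5, 540.5 and 570.5 bp in asynchronous G1E-ER4. These values overlap between groups. The mean differed from asynchronous G1E by -247 bp in mitotic G1E (exact permutation p = 0.5, adjusted p = 0.5) and by -266 bp in asynchronous G1E-ER4 (exact permutation p = 0.4, adjusted p = 0.457). Replicate 1 had the widest peaks in asynchronous G1E, and without both replicate 1 libraries of G1E, chosen after seeing the data, the second difference was 5.50 bp in the other direction. Peaks at the 410 regions were 224 bp wider than at mirror regions over the 6 asynchronous lists, wider in 5 of 6 (exact sign-flip permutation p = 0.0938, adjusted p = 0.15), and 5.50 bp narrower without replicate 1 of mitotic G1E. After merging, the 410 regions spanned 452 to 7235 bp with a median of 1620 bp, against 3342 bp for the regions of all 12 lists and 642 bp for those missing from both mitoses. The 9 summits of a region lay within a median of 218 bp of each other, and within 300 bp at 224 of the 410 regions (54.6%).

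Ordered by their mean rank in the 9 lists, the 12 best placed regions show the pattern at single sites. The first spans chromosome 8 from 60054048 to 60056232, with ranks of 1099, 1090 and 1063 in asynchronous G1E, 7126, 6962 and 7974 in mitotic G1E, and 19116, 12302 and 10636 in asynchronous G1E-ER4. Its 3 groups did not overlap, and its rank in asynchronous G1E-ER4 was 12.9 times that in asynchronous G1E. The second spans chromosome 9 from 102792122 to 102793273, with ranks of 5460, 1606 and 3671, then 13342, 5469 and 4671, then 18084, 17091 and 21625 in the same order of groups. Here asynchronous and mitotic G1E overlapped while asynchronous G1E-ER4 stood apart. On chromosome 2 from 131761166 to 131762025 the ranks were 3558, 1420 and 6714, then 16586, 13311 and 12143, then 14931, 17488 and 10542. At that site mitotic G1E and asynchronous G1E-ER4 overlapped, both below asynchronous G1E.

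Both next sites lie on chromosome 7. From 71202511 to 71204725 the ranks were 6891, 2280 and 3690 in asynchronous G1E, 15796, 9561 and 13975 in mitotic G1E, and 13484, 17753 and 16943 in asynchronous G1E-ER4. From 73377435 to 73379317 they were 4815, 1472 and 1109, then 26903, 8886 and 9024, then 19224, 18471 and 15004. In the latter, replicate 1 of mitotic G1E was by far the weakest of the 9. Chromosome 3 held 3 of the 12. From 79346384 to 79347128 the ranks were 4730, 6054 and 7295, then 16085, 7247 and 6381, then 21795, 19484 and 17680. From 95449110 to 95450608 they were 2785, 2887 and 7301, then 8759, 12152 and 8007, then 20289, 28528 and 18868. From 90187463 to 90188257 they were 8106, 1968 and 6150, then 31479, 4963 and 3659, then 19279, 17180 and 17223, and here 2 mitotic G1E lists ranked the site as high as asynchronous G1E while the first did not.

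Of the others, chromosome 4 from 40124475 to 40126290 had ranks of 7747, 1030 and 2825 in asynchronous G1E, 15987, 8867 and 12530 in mitotic G1E, and 28206, 16966 and 13951 in asynchronous G1E-ER4. Chromosome 4 from 149834574 to 149836982 had 3053, 9402 and 2012, then 10275, 14851 and 16404, then 21963, 16550 and 19621. In both the 3 groups took the order asynchronous G1E, mitotic G1E, asynchronous G1E-ER4 by their means. On chromosome 8 from 80007284 to 80010544 the ranks were 5446, 8688 and 12445, then 17917, 6014 and 7180, then 18663, 16287 and 18961. On chromosome 15 from 38620760 to 38621882 they were 5208, 7149 and 9106, then 12679, 6594 and 5481, then 29415, 19086 and 18457. These last 2 sites held their rank in mitotic G1E, at mean ranks 1.17 and 1.15 times those in asynchronous G1E. In all 12 the 3 ranks in asynchronous G1E-ER4 were weaker than the 3 in asynchronous G1E, and in 7 of 12 those in mitotic G1E were. Among all 410 regions these shares were 60.5% and 45.9%, and among the 18900 they were 12.7% and 12.5%. The 12 were chosen by the mean of the same 9 ranks, so their counts are not independent of that choice.

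The widest members were broader than single peaks of their lists usually are. A region on chromosome 4 from 148713183 to 148720417 had a mean peak width of 2404 bp over the 9 lists and ranks of 8911, 19585 and 16628 in asynchronous G1E, 7577, 18820 and 18134 in mitotic G1E, and 31834, 24778 and 30689 in asynchronous G1E-ER4. Its rank did not differ between asynchronous and mitotic G1E beyond their spread and was weaker in each G1E-ER4 list. On chromosome 16 from 95659454 to 95663813, 2249 bp wide in the mean, the ranks were 5990, 4991 and 4777, then 9858, 14667 and 10345, then 55046, 36559 and 32439. This is a strong G1E site with a 7.87-fold weaker rank in asynchronous G1E-ER4. The other 2 span 20818841 to 20822238 of chromosome 9 and 124681162 to 124683811 of chromosome 6, and their mean ranks in asynchronous G1E-ER4 were 1.08 and 1.82 times those in asynchronous G1E.

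The regions were mostly isolated. Joining members at most 100 kb apart left 341 alone and put 69 into groups of 2 or more. The largest group had 4 members on chromosome 3 between 51320849 and 51533723, a span of 212875 bp. Their mean ranks in asynchronous G1E were 12275, 7321, 16729 and 6147 in order of position, and in asynchronous G1E-ER4 48759, 22691, 28004 and 26298. All 4 were thus weaker in G1E-ER4 by their means. A group of 3 lay on chromosome 4 between 128940110 and 128973702, where the last member, from 128972236 to 128973702, ranked 6146, 3990 and 4875 in asynchronous G1E, 25135, 10574 and 11872 in mitotic G1E, and 67387, 74759 and 81512 in asynchronous G1E-ER4. This is one of the steepest contrasts among the sites named, with a rank 14.9 times weaker in asynchronous G1E-ER4. Of the 31 pairs, the one with the shortest span lay on chromosome 7 between 120432335 and 120436159, with mean ranks of 9954 and 15869 in asynchronous G1E and 48666 and 35824 in asynchronous G1E-ER4.

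Many of the regions had other listed peaks nearby. A region of all 12 lists lay within 10 kb of 181 of the 410 (44.1%) and within 50 kb of 324 (79.0%). These shares were 50.1% and 82.3% around the regions of all 12 lists themselves, and 36.0% and 76.8% around those missing from both mitoses. In the mitotic G1E-ER4 lists the nearest listed peak was a median of 4551, 4402 and 4579 bp away, and 300, 298 and 302 of the 410 regions had one within 10 kb, at most 73.7%. In the 9 lists that held the regions, another peak lay within 10 kb of 314 to 378 of them (76.6% to 92.2%), more than in each mitotic G1E-ER4 list. These shares were not computed for all 18900 regions, so whether the difference is particular to the 410 was not tested. Between the listed peaks on either side of a region, the running numbers skipped a median of 9, 8 and 7 peaks over spaces of 28446, 24929 and 25918 bp. Read as the caller's index, these numbers put weaker, unlisted peaks into most of the spaces, and their place in them cannot be read from the lists.

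The authors' pooled lists, made from the same libraries, held all 410 regions in asynchronous G1E, asynchronous G1E-ER4 and mitotic G1E, at median ranks of 12468, 24869 and 18982. The pooled mitotic G1E-ER4 list held 55 of the 410 (13.4%), at a median rank of 86711, and 53 of the 55 lay beyond rank 50000. It held 69.8% of the regions that 1 of the replicate lists held, at a median rank of 65901, and 96.7% of those that 2 held, at 39206. For most of the 410 regions absence thus extended to the pooled list, and those it held stood near its end. The 55 had a median mean rank of 24629 in asynchronous G1E-ER4, against 34353 for the other 355. In asynchronous G1E the order was the opposite, 17683 against 14101, and in mitotic G1E the values were 34987 and 32908. The best placed of them, on chromosome 19 from 6451771 to 6454669, had a pooled mitotic G1E-ER4 rank of 19687, and chromosome 5 from 28034382 to 28036569 one of 26246. Next came chromosome 12 from 99518652 to 99519250 at 60478 and chromosome 3 from 40496831 to 40499397 at 60855. A pooled rank can lie far from those of the replicates. Chromosome 1 from 75142828 to 75144959 had a pooled asynchronous G1E-ER4 rank of 4205, while its replicates had 85567, 90610 and 45879. Whether a pooled peak at a region is the same peak as in the replicate lists was not tested.

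Some regions stood close to the limit of a list that held them, and the most extreme are named here. The 410 have no rank in the mitotic G1E-ER4 replicate lists, so how far beyond that limit they lie is unknown. Of the regions that 1 mitotic G1E-ER4 list held, that list ranked 418 of 752 beyond 50000, and the last of them, on chromosome 11 from 120541013 to 120543109, had rank 99960 in replicate 3. The next 3 span 6320383 to 6322662 of chromosome 17, 103075372 to 103080179 of chromosome 15 and 65349842 to 65351539 of chromosome 5, with ranks of 99945, 99900 and 99788 in replicates 1, 1 and 3. Among the 410, the weakest of the 9 ranks reached 99646 on chromosome 6 from 127272303 to 127273348, in replicate 1 of mitotic G1E. It reached 99444 in the same list on chromosome 11 from 74432569 to 74433575, 99423 in replicate 2 of asynchronous G1E-ER4 on chromosome 12 from 55814487 to 55816467, and 99420 in replicate 3 of mitotic G1E on chromosome 12 from 78043387 to 78045109. Replicate 1 of mitotic G1E gave the weakest of the 9 ranks for 139 of the 410 regions, the 3 asynchronous G1E-ER4 lists for 189, the other mitotic G1E lists for 66 and the asynchronous G1E lists for 16.

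By chromosome, the share of the 9-list regions that were missing only from mitotic G1E-ER4 ran from 0.777% on chromosome 12 (14 of 1802) to 3.92% on chromosome 4 (54 of 1376), around 2.17% over all autosomes. Chromosome 4 alone held 13.2% of the 410 regions and 7.28% of the 18900. Replicate 1 of mitotic G1E moved with this: it ranked the chromosome 4 members at a median of 22873 and those of other chromosomes at 46835, whereas replicate 2 had 22443 and 22563 and replicate 3 had 24409 and 22680. Without both replicate 1 libraries of G1E, chosen after seeing the data, the share was 5.65% on chromosome 4 and 5.51% over all autosomes. Chromosome 12 stayed low in that setting, at 1.80%. Chromosomes 3 and 18 had shares of 3.68% and 3.64%, and 7.89% and 8.38% without those 2 libraries.

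**Figure D5:**
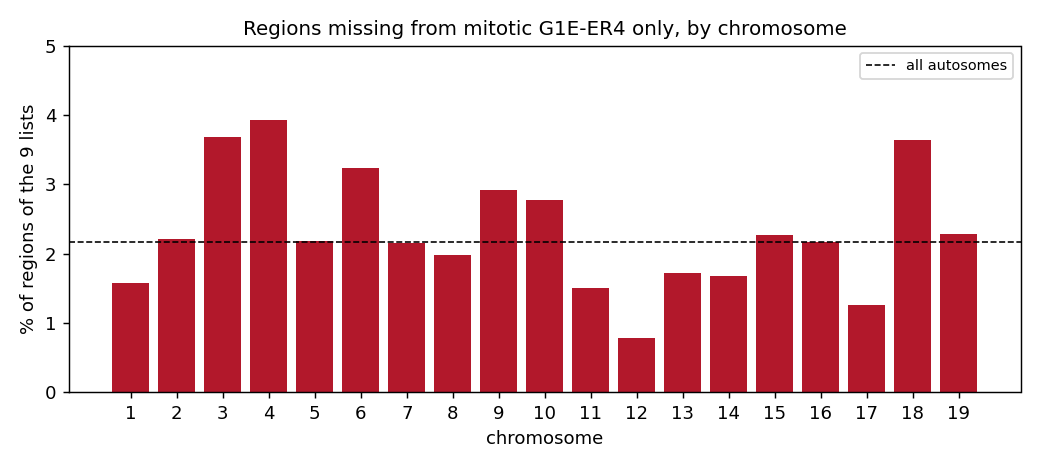
Share of the regions held by the 9 other lists that were missing only from mitotic G1E-ER4 (y axis, %) on each autosome (x axis), with a dashed line at the 2.17% of all autosomes. Chromosome 4 has the highest share at 3.92% and chromosome 12 the lowest at 0.777%.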

How the data were processed

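Peak lists of 12 DNase-seq libraries, 3 in each of 4 groups, and 4 lists that the authors pooled by group were used as deposited. The submitters' processing notes name Bowtie and build mm9. Which program called the peaks, and with what filters, is not given in the sources used. The signal per peak is the value in the deposited lists, its normalization unstated, and was used only within a list, as a rank or relative to the last peak. Depth is unknown, so no counting interval is given.

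Peaks on chromosomes 1 to 19 were merged with an overlap of at least 1 bp, and each region took the best-ranked peak of each list. Tests were exact permutation tests over lists, two-sided, with Benjamini-Hochberg adjustment over 9 tests and a threshold of 0.05. The tests against regions of all 12 lists, against the mirror regions and of rank between groups are not independent of the rule. Those values are given as descriptions. Replicate numbers were checked as pairs by correlating deviations of log10 rank from the group means over the regions of all 12 lists. Same-numbered lists of asynchronous G1E-ER4 and G1E correlated at 0.404, 0.170 and 0.187. Replicate 3 of G1E-ER4 correlated better, at 0.301, with replicate 2 of G1E, so by that measure the numbers did not pair every list. With pairs kept together, 3 pairs allow no exact permutation p below 0.25, so no test can pass. The members and lists were chosen with earlier results of these data known. Regions named are the 12 of best mean rank, the 4 widest, the 3 groups with most members (ties by the shortest span), the 4 best in the pooled mitotic G1E-ER4 list, and the 4 nearest to the limit on either side. No sequence is shown, since a genome of build mm9 was not used. Of the design, the motifs and nearest genes were not analysed here for the same reason. The procedure was tested on simulated lists. Python 3.11.15, numpy 2.4.6, pandas 2.3.3 and matplotlib 3.10.9 were used.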

Additional observations from a re-analysis of the deposited data

Results flagged for a closer look

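The rank difference between the 410 regions and the mirror regions took opposite signs in the 2 lines: it was negative in all 3 asynchronous G1E lists and positive in all 3 asynchronous G1E-ER4 lists, so that the lines differed by 32392.5 places. The exact permutation test of that difference cannot go below p = 0.1 with 3 lists against 3. Since the 2 sets were chosen by opposite presence in the mitotic lists of these lines, the signs are not independent of the rule. A signal outside the replicate lists was found as well: the pooled mitotic G1E-ER4 list held a peak at 55 of the 410 regions.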

How the results depend on the processing

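Leaving out 1 list gave 421 to 1231 regions missing only from mitotic G1E-ER4 (2.10% to 5.42% of the regions of the other lists) and 41 to 106 mirror regions. With presence in at least 2 of 3 lists these values were 2290, 7.60% and 467, and with the pooled lists 6447, 16.3% and 2342. Among the 50000 highest peaks the share was 2.63%, but only 103 of the 410 regions overlapped the 349 found there, and with 300 bp around each summit it was 3.45%, where 282 of the 410 overlapped the 441 found. Without both replicate 1 libraries of G1E the values were 1287, 5.51% and 119. In that last setting, chosen after seeing the data, the width difference between asynchronous G1E-ER4 and G1E turned to 5.50 bp and that between the 410 and the mirror regions to -101 bp. The rank and width differences from the regions of all 12 lists were then 16672 places and -740 bp, each with an exact permutation adjusted p = 0.0703, which 7 lists in place of 9 set as the smallest possible. On leaving out 1 list, the width difference from the mirror regions ran from -5.50 to 299 bp, and the rank and width differences from the regions of all 12 lists from 13918 to 17182 places and from -768 to -588 bp, with adjusted p of 0.0176 to 0.0352. The differences not named here kept their direction under every alternative tried. With the replicate block, the differences of 15227 and 16008 places had an adjusted exact permutation p = 0.281 each, where 3 pairs cannot go below p = 0.25. Flipping same-numbered lists together, also chosen after seeing the data, left the differences from the regions of all 12 lists at 14928 places and -656 bp. Each then had an exact permutation adjusted p = 0.281. Their exact permutation adjusted p = 0.0176 would require all 9 lists to be independent. It would also require sets chosen without regard to rank, which the rule did not give. No p-value given here for these differences therefore counts as support. No difference between groups could pass with the block or without it. Same-numbered lists of mitotic and asynchronous G1E correlated at 0.314, 0.150 and 0.0949. The pairing is not shown there either, and not every list correlated best with its own number.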

Other observations

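At 11 of the 410 regions, 1 of the 3 mitotic G1E-ER4 lists skipped no running number between the listed peaks on either side. If these numbers are the caller's index, no peak of any strength was called between them in that library. Replicates 1, 2 and 3 accounted for 2, 1 and 8 of these regions, and the share among other regions was not computed. The 11 regions include chromosome 9 from 107542374 to 107543308, chromosome 9 from 110569717 to 110570811 and its neighbour from 110570967 to 110573629, and chromosome 1 from 156897171 to 156900753. These sites were chosen after their values were seen.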
